A study of Mus musculus with 4 samples.

Results

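The 8 troponin genes of striated muscle were read out of a table of transcript start sites from skeletal muscle of AMPKα2 knockout (KO) and wild-type (WT) mice. Members were chosen by gene symbol alone. They comprised the fast skeletal isoforms Tnnt3, Tnni2 and Tnnc2, the slow skeletal isoforms Tnnt1, Tnni1 and Tnnc1, and the cardiac isoforms Tnnt2 and Tnni3. Of these 8 genes, 6 had at least 1 listed site, and together they held 40 of the 42207 sites, among 9838 genes. Tnnt2 and Tnni3 had no listed site and were counted as not detected.

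Troponin is the calcium switch of the thin filament. Troponin T, encoded by the Tnnt genes, anchors the complex to tropomyosin, troponin I (Tnni) holds actin and myosin apart at rest, and troponin C (Tnnc) binds calcium and releases that block. Fast-twitch and slow-twitch fibres each build the complex from their own set of genes, so the isoforms serve as markers of fibre type, and Tnnc1 is shared by slow fibres and the heart. Troponin I and troponin T genes lie near each other in the genome. In RefSeq Tnni2 and Tnnt3 were 54.4 kb apart on chromosome 7 with Lsp1 between them, Tnni1 and Tnnt2 were 25.3 kb apart on chromosome 1 with Lad1 between them, and Tnni3 and Tnnt1 were 2.33 kb apart on chromosome 7 with no protein-coding gene between them.

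Both groups were adult male mice, and RNA came from the gastrocnemius, a calf muscle of mostly fast fibres. The KO mice (AMPKα2-/- on C57BL/6, n = 2 libraries, 1 per animal) lacked a stretch of Prkaa2 coding for a piece of the catalytic domain, and the WT mice (n = 2 libraries, 1 per animal) were their controls. Start sites were captured by WTSS-seq (sequencing of start sites over the whole transcriptome), in which rRNA-depleted RNA is copied from a semirandom primer with template switching at the 5′ end. Each read therefore begins at the 5′ end of an RNA molecule, whether whole or broken. A cluster of such read ends is an alternative start site (ASS), and a site past the DESeq2 threshold is a DE-ASS.

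The 2 KO libraries held 2900279 and 2303294 reads and the 2 WT libraries 1300069 and 1568945 reads, so that both KO libraries were deeper. Mitochondrial reads made up 19.4% to 24.1% of a library and 18S ribosomal RNA 15.2% to 17.6%. Prkaa2, the targeted gene, had normalized counts of 149 and 183 in KO and 153 and 186 in WT (log2 fold change -0.03 ± 0.50 SE, adjusted p = 0.994 by DESeq2), so its sum over sites gave no check of the labels. Skeletal muscle markers were present (6 of 7 listed, without Pygm), whereas 4 of 7 heart markers were listed, with 331 reads over the 4 libraries for Actc1, 47 for Myh6, 20 for Myl4 and 17 for Ryr2, and none for Nppa, Nppb and Myl7. WT replicate 1, the shallowest library, stood apart from the other 3 at Tnnt1, Tnni1 and the start site of Tnnc2, and results that rest on it are given with and without it.

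The sequences around 3 annotated starts are shown first, because 1 of them carried a captured start site and the other 2 belong to the slow genes with a TATAA motif. A window from 250 bases before to 50 bases after an annotated start was given by RefSeq (GRCm38.p6) for 6 of the 8 members, 4 of which had a listed site. Among the 14 sense sites of these 4 genes, 1 overlapped such a window, the site of Tnnc2 at chr2:164779697-164779760, whose peak lay 20 bases before the annotated start. Over all genes with a window, 2.87% of the sites lay in one and 12.3% of the genes had such a site. The stretches printed here end 30 bases after the annotated start and run 5′ to 3′ on the gene's strand. For Tnnc2 (minus strand, chr2:164779705-164779984) the capitals mark the printed bases covered by the captured site. The site itself runs on to 37 bases after the annotated start, past the end of the printed stretch. In Tnnc1 (plus strand, chr14:31208062-31208341) and Tnnt1 (minus strand, chr7:4515946-4516225) they mark the letters TATAA, which began 24 and 30 bases before the annotated start.
Tnnc2: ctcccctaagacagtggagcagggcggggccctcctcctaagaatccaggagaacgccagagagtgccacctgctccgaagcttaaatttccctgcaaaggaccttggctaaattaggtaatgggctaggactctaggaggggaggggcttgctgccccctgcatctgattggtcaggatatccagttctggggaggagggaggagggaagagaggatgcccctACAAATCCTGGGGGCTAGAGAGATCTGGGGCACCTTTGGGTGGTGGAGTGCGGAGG
Tnnc1: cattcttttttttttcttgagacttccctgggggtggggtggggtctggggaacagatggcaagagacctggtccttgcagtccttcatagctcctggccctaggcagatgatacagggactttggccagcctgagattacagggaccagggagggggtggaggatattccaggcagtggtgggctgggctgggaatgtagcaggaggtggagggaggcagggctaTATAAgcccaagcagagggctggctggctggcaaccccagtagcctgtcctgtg
Tnnt1: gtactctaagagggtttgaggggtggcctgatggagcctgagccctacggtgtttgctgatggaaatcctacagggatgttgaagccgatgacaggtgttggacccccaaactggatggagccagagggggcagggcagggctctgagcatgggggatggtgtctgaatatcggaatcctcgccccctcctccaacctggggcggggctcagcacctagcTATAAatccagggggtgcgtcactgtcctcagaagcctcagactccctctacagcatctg
The letters TATAA occurred on the gene's strand in 17.5% of the 32851 windows of all genes and on either strand in 24.9%. The Tnnc2 window had no TATAA on either strand. Each of the 3 windows held 2 matches to the E-box letters CANNTG, the motif read by myogenic factors such as MyoD, and 72.3% of all windows held at least 1.

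The fast troponins carried nearly all of the troponin reads. Their 3 genes had 31865 of the 32259 reads on the 6 genes, and the slow genes had 394 reads, or 1.22%. These are reads and not molecules per cell, because transcript lengths were not used here, so the genes are not ranked against each other.

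Tnnt3, the fast troponin T (chr7:142498771-142516213), was read at nearly the same normalized count in every library, with 1941 and 2144 in KO and 1934 and 2297 in WT. Its raw reads were 3178 and 2453 in KO against 1379 and 1844 in WT. The groups overlapped, and the log2 fold change of KO over WT was -0.05 (SE 0.39, DESeq2 adjusted p = 0.992).

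Tnni2, the fast troponin I (chr7:142441816-142444410), varied most among the fast genes, with 852 and 2604 normalized counts in KO against 1813 and 3715 in WT. The higher KO library had 3.06 times the lower one, and the higher WT library 2.05 times the lower one. KO replicate 1 was the lowest library and WT replicate 2 the highest, and the groups overlapped. With a log2 fold change of -0.68 (SE 0.55), Tnni2 did not pass the test (DESeq2 adjusted p = 0.866). The value was -0.08 without KO replicate 1, -1.69 without KO replicate 2, -1.11 without WT replicate 1 and -0.10 without WT replicate 2, with adjusted p-values from 0.341 to 1.00 over all alternatives.

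Tnnc2, the fast troponin C (chr2:164777161-164779734), had 2618 and 4069 normalized counts in KO and 1918 and 5044 in WT. WT held both the lowest and the highest library. Its log2 fold change was -0.06 ± 0.50 (SE, adjusted p = 0.992 by DESeq2), with a 95% interval from -1.05 to 0.93.

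Tnnt1, the slow troponin T (chr7:4504569-4515975), was higher in both KO libraries than in both WT libraries. It had 107 and 108 reads in KO against 5 and 37 in WT, which gave normalized counts of 65.4 and 94.4 in KO (79.9 ± 20.5, SD, n = 2) and 7.01 and 46.1 in WT (26.5 ± 27.6, SD, n = 2). The WT libraries differed from each other by 6.57 times, more than the KO and WT means did. The log2 fold change was 1.58 (SE 0.84) and its 95% interval ran from -0.08 to 3.23, so it did not pass the test (DESeq2 adjusted p = 0.557). Without WT replicate 1 the log2 fold change was 0.79, and without WT replicate 2 it was 3.48 (DESeq2 adjusted p = 0.102). Over all alternatives its adjusted p ranged from 0.102 to 1.00.

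Tnni1, the slow troponin I (chr1:135783033-135810989), had 25 and 20 reads in KO against 0 and 7 in WT. The normalized counts were 15.3 and 17.5 in KO and 0 and 8.72 in WT, so the groups did not overlap and WT replicate 1 had no read. A count of 0 there allows up to 3 reads, or 2.31 cpm (reads scaled to a common library size). The log2 fold change of 1.89 (SE 1.55) had no adjusted p from DESeq2, since the mean count fell under the minimum that DESeq2 set (16.5), and edgeR gave an adjusted p of 0.662. The log2 fold change of Tnni1 was 0.91 without WT replicate 1. Without WT replicate 2, WT had no read. The KO mean was then 3.89 times the floor of 3 reads, and the fitted value of 5.96 is not a bound.

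Tnnc1, the troponin C of slow fibres and heart (chr14:31208312-31211729), had 33 and 37 reads in KO against 5 and 10 in WT. Its normalized counts were 20.2 and 32.3 in KO (26.2 ± 8.61, SD, n = 2) and 7.01 and 12.5 in WT (9.73 ± 3.85, SD, n = 2). Both KO libraries again stood above both WT libraries, and the log2 fold change was 1.42 (SE 1.08, DESeq2 adjusted p = 0.825). It was 1.07 without WT replicate 1 and 1.87 without WT replicate 2. Of the 37 reads in KO replicate 2, 12 lay at an antisense site, and with sense sites only the log2 fold change was 1.11.

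**Figure D1:**
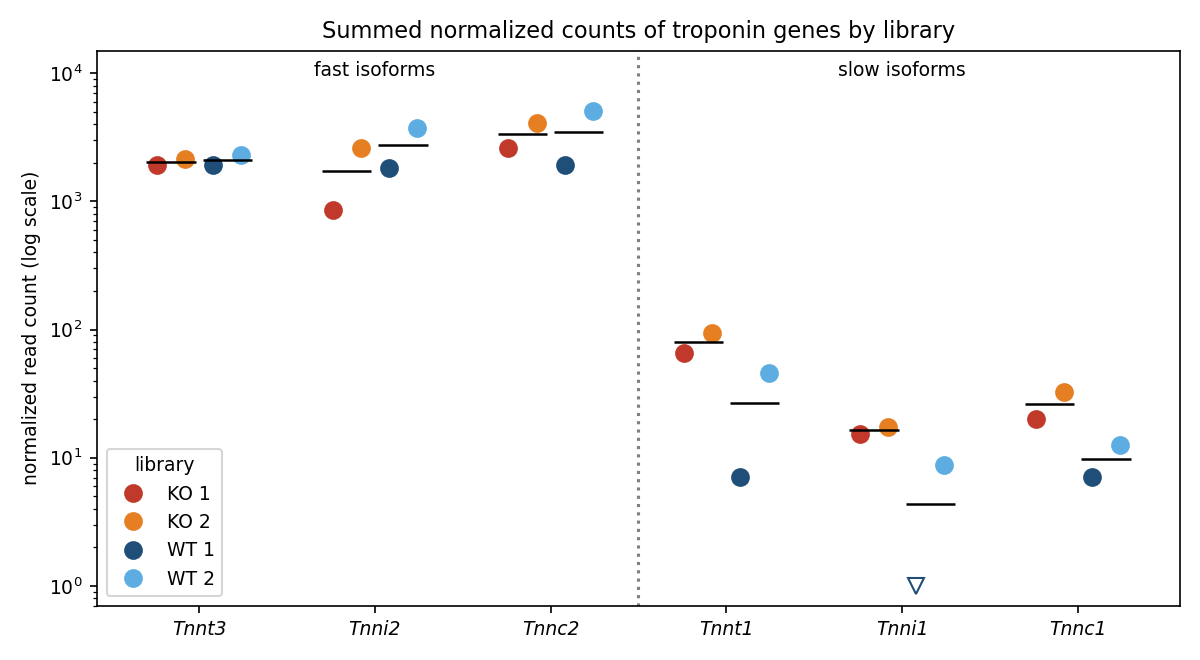
Summed normalized counts per gene (log axis) in each of the 4 libraries, with black bars at the group means (n = 2). Libraries of KO and WT overlap for the 3 fast genes, while for the 3 slow genes both KO libraries lie above both WT libraries; the open triangle marks the 0 reads of Tnni1 in WT replicate 1, drawn at 1.

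Of the 6 genes with a site, DESeq2 gave 5 an adjusted p and called 0 of them, against 2.67% of the genes tested in the whole table. The quasi-likelihood test of edgeR tested all 6 and also called 0, and neither tool gave any of them an unadjusted p under 0.05. Both KO libraries stood above both WT libraries for 3 of 3 slow genes and 0 of 3 fast genes, where 21.7% of all 9838 genes showed this order. The sites summed were those with at least 10 reads in total, a minimum toward which the deeper KO libraries add more reads. Its effect on this order was not tested. In whole muscle, fewer cells of a type and less RNA per cell cannot be told apart.

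Slow and fast isoforms were then compared within each library, where differences in depth and scaling cancel. The slow isoforms took 1.83% and 1.61% of the slow and fast troponin reads in KO (1.72% ± 0.155, SD, n = 2) and 0.247% and 0.605% in WT (0.426% ± 0.253, SD, n = 2). The 95% Wilson intervals were 1.57% to 2.13% and 1.38% to 1.87% in KO and 0.134% to 0.454% and 0.464% to 0.788% in WT. Both KO shares thus lay above both WT shares, and the WT libraries also differed from each other beyond counting error.

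On the log2 scale the ratio of slow to fast reads was -5.75 and -5.93 in KO and -8.66 and -7.36 in WT, a mean difference of 2.17 or 4.50-fold. The exact two-sided permutation test gave p = 0.333, the smallest value that 2 libraries against 2 can give, so that the design could not reach 0.05. Without WT replicate 1 the difference was 1.52, and without WT replicate 2 it was 2.82.

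In each of the 3 pairs both KO libraries had a larger slow share than both WT libraries. For troponin T, the share of Tnnt1 was 3.26% and 4.22% in KO against 0.361% and 1.97% in WT, a log2 difference of 2.17. The share of Tnni1 in troponin I was 1.76% and 0.667% in KO and 0% and 0.234% in WT, a difference of 3.51 with a pseudocount of 0.5. For troponin C, Tnnc1 took 0.764% and 0.788% in KO against 0.364% and 0.246% in WT, a difference of 1.38, or 1.10 with sense sites only. The groups did not overlap in any pair, with an exact permutation p of 0.333 in each of the 3 pairs, and of 0.333 after Benjamini-Hochberg adjustment over them. These differences became 0.94 for troponin T, 2.16 for troponin I and 1.66 for troponin C without WT replicate 1, and 3.41, 4.86 and 1.10 in the same order without WT replicate 2, where the value for troponin I rests on the pseudocount. With the largest site of each gene only, and a pseudocount of 0.5 in all 3 pairs, they were 3.69, 2.60 and 1.81. The largest Tnnt1 and Tnni1 sites had 0 reads in WT replicate 1, so there the values for troponin T and I rest on the pseudocount.

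**Figure D2:**
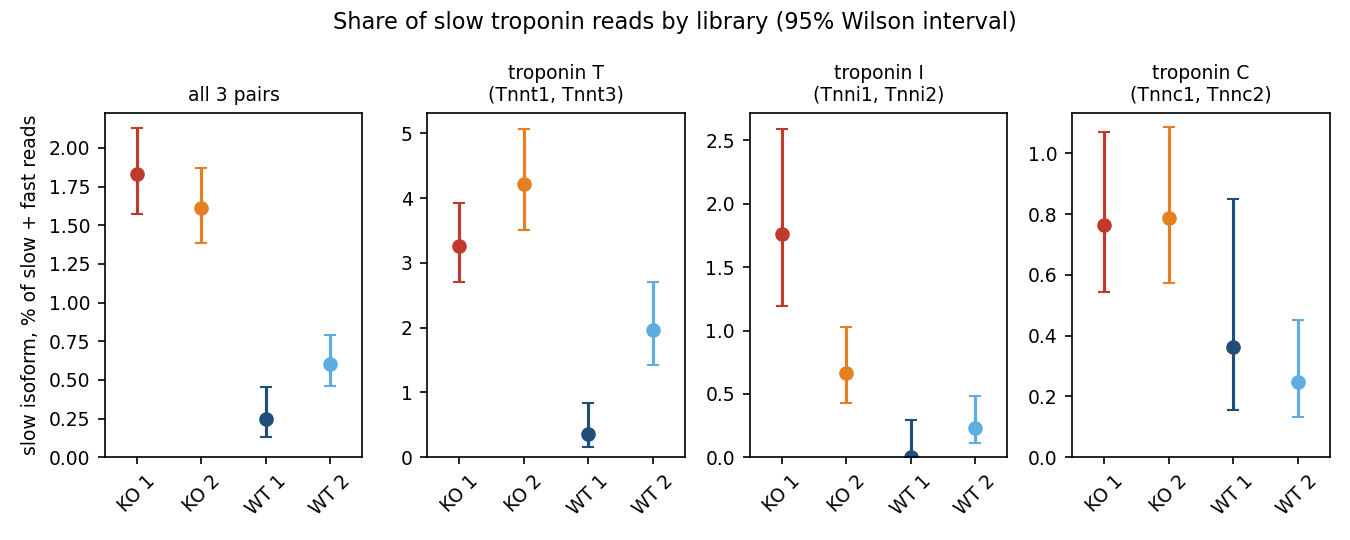
Percent of slow isoform reads among slow and fast reads in each library, for all pairs and for troponin T, I and C, each on its own linear axis; bars are 95% Wilson intervals and cover counting error only. Both KO points lie above both WT points in each panel, with the intervals of single libraries meeting in the panels for troponin I and C.

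The slow difference moved with other measures of the libraries. Both KO libraries were deeper, and the listed sites had at least 10 reads in total over the 4 libraries, a minimum that falls hardest on low genes. The summed normalized counts of the fibroblast markers were 3029 and 2822 in KO and 3949 and 3708 in WT, with 3 of 7 listed markers higher in both WT libraries, where 17.6% of all genes were, 0 higher in both KO libraries, and Postn without a listed site. Their part in the slow troponin difference was not tested.

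Within the genes, the 40 sites were divided as 18 in Tnnt3, 7 in Tnni2, 5 in Tnnc2, 4 in Tnnt1, 3 in Tnni1 and 3 in Tnnc1. Sites of class code e, which extend from an exon into an intron, were 17 of the 40 and held 57.2% of the reads, against 3.20% of the sites and 4.57% of the reads of all sites with a gene. The members had 13 intronic sites (class code i), or 32.5% of their sites with 25.3% of their reads, against 52.0% of the sites and 20.4% of the reads of all sites with a gene. A single Tnni2 site held 7881 of these 8172 intronic reads. A further 6 sites were contained in a transcript (c), 2 overlapped an exon in another way (o) and 2 were antisense to an exon (x). Of the 40 sites, 25 had a read in all 4 libraries.

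DESeq2 tested 22 of the 40 sites and called 0 as DE-ASSs, against 3.21% of the sites tested in the whole table. edgeR tested 22 and called 0, and each tool gave 1 site an unadjusted p under 0.05. Both KO libraries stood above both WT libraries at 10 of the 40 sites, where 22.2% of all sites did so, and the opposite order held at 2 of 40, where 13.9% of all sites did so.

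Reads of Tnnt3 gathered toward the 3′ part of the gene. The site with most reads, chr7:142515735-142515933 (class code e), had its peak 403 bases before the annotated end and held 2042 and 1243 reads in KO and 957 and 1099 in WT. It took 64.3% and 50.7% of the Tnnt3 reads in KO and 69.4% and 59.6% in WT, so the groups overlapped (log2 fold change -0.09 ± 0.54 SE, adjusted p = 1.00 by DESeq2). The sense site nearest the annotated start, chr7:142498815-142498840 (class code c), lay 68 bases after it and had only 20 and 24 reads in KO and 6 and 9 in WT. Its normalized counts, 13.1 and 20.7 in KO and 8.14 and 10.4 in WT, did not overlap, but the log2 fold change of 0.86 (SE 1.33) did not pass the test (DESeq2 adjusted p = 1.00).

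An antisense site in Tnnt3, chosen after its values were seen, was the site with an unadjusted p under 0.05. It lay on the minus strand at chr7:142515995-142516023, with its peak 208 bases before the gene's annotated end, and Tnnt3 was the only annotated gene within 5 kb of it. It had 90 and 146 reads in KO and 17 and 26 in WT, or normalized counts of 59.1 and 126 in KO and 23.1 and 30.03 in WT. Both KO libraries stood above both WT libraries, and the log2 fold change was 1.80 (SE 0.83), which gave adjusted p-values of 0.399 by DESeq2 and 0.425 by edgeR. Over all alternatives the adjusted p ranged from 0.399 to 1.00. Its share of the Tnnt3 reads was 2.83% and 5.95% in KO and 1.23% and 1.41% in WT. Whether the mapping of these libraries could place a sense read on the minus strand is not given in the sources used here.

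Tnni2 was read almost wholly from 1 intronic site. The site at chr7:142442329-142442382, with its peak 520 bases after the annotated start, had 1128 and 2760 reads in KO and 1198 and 2795 in WT. Its share was 80.9% and 92.6% in KO and 92.7% and 93.7% in WT, so KO replicate 1 stood lower than the other 3. The normalized counts were 740 and 2382 in KO and 1626 and 3228 in WT, which overlapped (log2 fold change -0.64 ± 0.68 SE, adjusted p = 1.00 by DESeq2). At chr7:142442285-142442301, 485 bases after the annotated start, the intronic site nearest to it had 11 reads, all in KO replicate 2. The other 5 sites, 4 of class code e and 1 of class code c, held the rest of the reads.

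In Tnnc2 the reads fell mainly on a site over the annotated start and on a site in the 3′ part. The start site, shown in part in capitals above, had 1564 and 1858 reads in KO and 34 and 1718 in WT. It took 36.5% and 39.9% of the Tnnc2 reads in KO and 42.4% in WT replicate 2, but 2.49% (95% Wilson interval 1.78% to 3.45%) in WT replicate 1. The 3′ site at chr2:164777536-164777634 (class code e), 2117 bases after the annotated start, had 2001 and 1891 reads in KO and 1064 and 1869 in WT.

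The difference at the start of Tnnc2 was thus one between the 2 WT libraries. Its normalized counts were 1026 and 1603 in KO against 46.1 and 1984 in WT, and the log2 fold change was 0.37 ± 1.00 (SE, adjusted p = 1.00 by DESeq2). Without WT replicate 1 the log2 fold change was -0.59, and without WT replicate 2 it was 4.79 (DESeq2 adjusted p = 2.67e-07, with a range of 2.67e-07 to 1.00 over all alternatives). The 4 sites after the annotated start together had 1663 and 2445 normalized counts in KO and 1871 and 2904 in WT, where WT replicate 1 lay between the KO libraries.

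**Figure D3:**
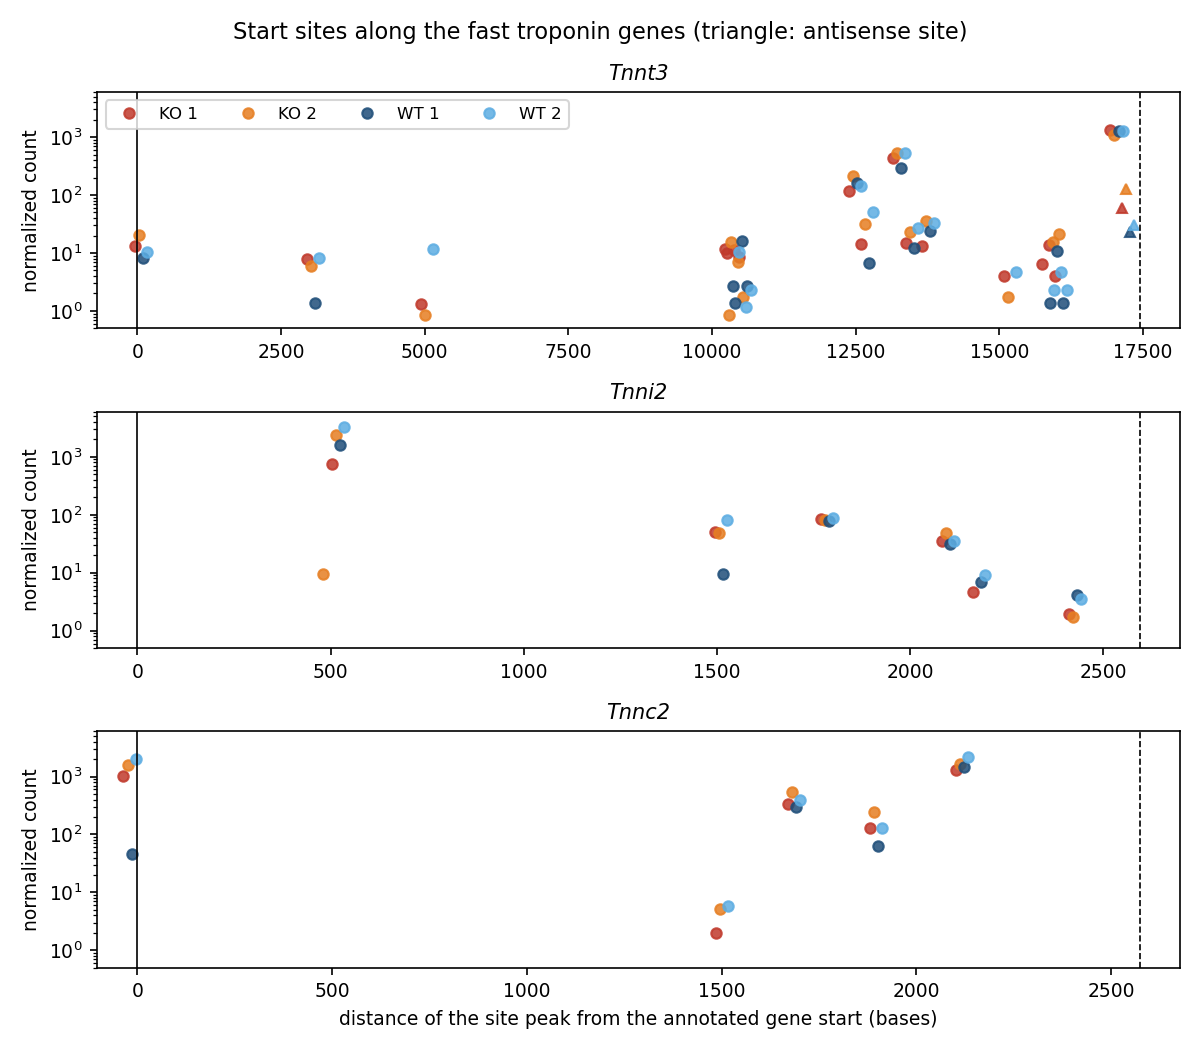
Normalized counts (log axis) of the start sites of Tnnt3, Tnni2 and Tnnc2 in each library against the distance of the site's peak from the annotated start in bases; libraries are shifted sideways for legibility, counts of 0 are not drawn, and solid and dashed lines mark the annotated start and end. Tnnt3 reads peak 403 bases before the end, Tnni2 reads 520 bases after the start, and Tnnc2 reads both 20 bases before the start and 2117 bases after it, where WT replicate 1 has 46.1 normalized counts at the start and the other libraries have 1026 to 1984.

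The slow genes had few reads at any site. Tnnt1 had 4 sites, the nearest to its annotated start being an intronic one 5507 bases after it with 14 reads. Its main site, chr7:4509079-4509143 (class code e), had 61 and 60 reads in KO and 0 and 18 in WT (log2 fold change 2.13 ± 1.28 SE, adjusted p = 0.706 by DESeq2). No read of WT replicate 1 fell there, and the 5 Tnnt1 reads of that library were all at another site. Without WT replicate 1 the log2 fold change of this main site was 1.15. Without WT replicate 2, where WT had no read at this site, the fitted value was 7.47, which is not a bound. The KO mean was then 11.3 times the floor of 3 reads. In that last fit this site and the start site of Tnnc2 were the 2 members called, where 2.11% of the sites tested were called.

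Tnni1 reads lay at 3 sites, of which the largest, chr1:135799834-135799881, was intronic and had 6 and 14 reads in KO and 0 and 5 in WT. It was 325 bases after the nearest of the 2 starts listed for this gene by RefSeq. Tnnc1 had its main site at chr14:31210046-31210094 (class code e), 1776 bases after the annotated start, with 28 and 21 reads in KO and 2 and 10 in WT. Its normalized counts of 18.4 and 18.1 in KO and 2.71 and 11.6 in WT did not overlap, and the site did not pass the test (log2 fold change 1.34 ± 1.41 SE, adjusted p = 1.00 by DESeq2). The value was 0.66 without WT replicate 1 and 2.70 without WT replicate 2. An antisense site of Tnnc1 had 12 reads, all in KO replicate 2.

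How the reads of a gene were divided among its sites was tested in the 4 members with at least 2 sites that passed the count filter, Tnnt3 (11 sites), Tnni2 (4), Tnnc2 (4) and Tnnt1 (2). None of the 4 was called by diffSpliceDGE of edgeR with the Simes method, where 1.77% of the genes tested were called. The adjusted p-values were all 1.00, and 0 of the 4 had an unadjusted p under 0.05. The gene-level F test also called 0, with adjusted p-values from 0.902 to 0.976.

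**Figure D4:**
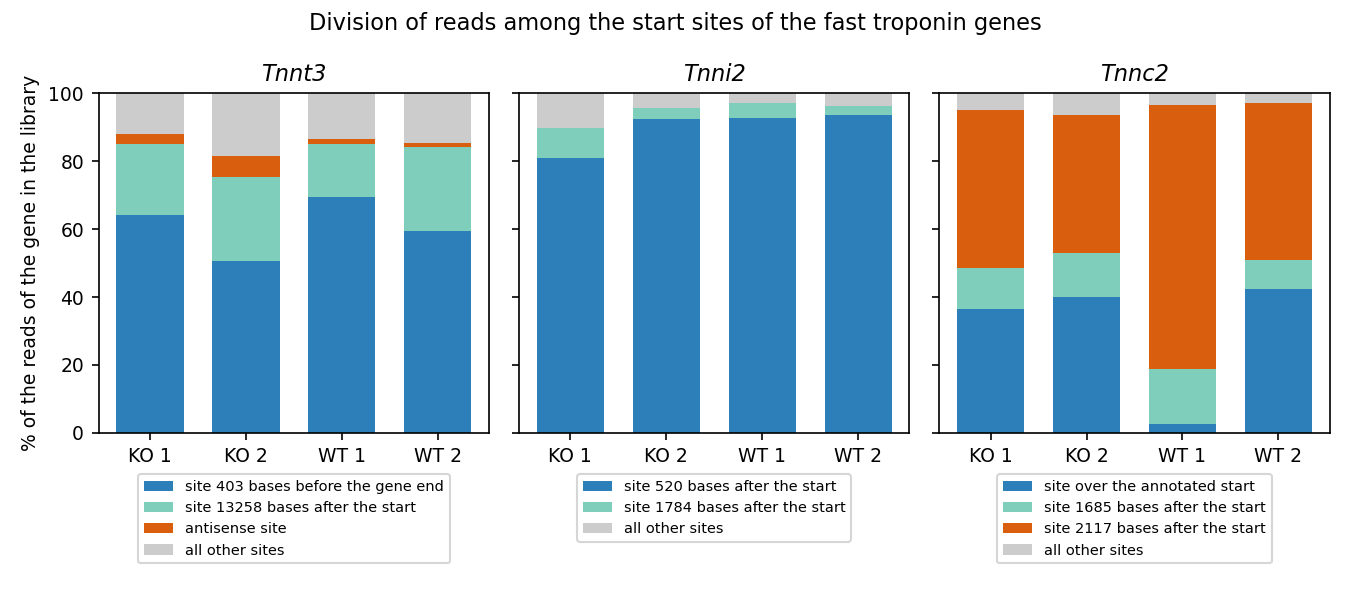
Percent of the reads of Tnnt3, Tnni2 and Tnnc2 that fell on their main start sites in each library, stacked to 100%. The division is alike in 3 of the 4 libraries for Tnnc2, where WT replicate 1 has 2.49% at the annotated start, and KO replicate 1 has the lowest share at the main Tnni2 site (80.9%).

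Other genes of the thin filament and of fibre types were read in the same fits, in which 2.67% of the genes tested were called. Of 13 thin filament genes, 12 were tested and 0 were called, with a median log2 fold change of -0.05, where the median of all 4688 genes tested was 0.01 and 80 were up-regulated and 45 down-regulated. Xirp2, an actin-binding repeat protein, had a log2 fold change of -0.22 (SE 0.41), Neb, which encodes the filament ruler nebulin, -0.09 (SE 0.41), and Tpm2, a tropomyosin, 0.30 (SE 0.42). Tmod1, the cap of the filament's pointed end, and Lmod3, a nucleator of actin, were the 2 with an unadjusted p under 0.05, at 1.48 (SE 0.63, DESeq2 adjusted p = 0.320) and 1.24 (SE 0.62, DESeq2 adjusted p = 0.505). These 2 genes are named after their values were seen.

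Slow fibre genes other than troponins mostly overlapped between KO and WT. Of 11 genes, 9 were listed, 6 were tested and 0 were called, with a median log2 fold change of 0.34. Only 1 of the 9, Atp2a2, was higher in both KO libraries, where 21.7% of all genes were. Myh7, the slow myosin heavy chain, had 574 and 806 normalized counts in KO and 217 and 615 in WT, with WT replicate 1 the lowest (log2 fold change 0.73 ± 0.53 SE, adjusted p = 0.798 by DESeq2). Tpm3, the slow tropomyosin, had a log2 fold change of 0.51 (SE 0.51), and Atp2a2, the slow calcium pump of the sarcoplasmic reticulum, 0.55 (SE 0.57). Summed over the list, normalized counts were 1142 and 1579 in KO and 565 and 1292 in WT, which overlapped. The median of the list was -0.16 without WT replicate 1.

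All 12 fast fibre genes were tested and 0 were called, with a median log2 fold change of -0.08. Myh4, the IIB myosin heavy chain, had 16339 and 24355 normalized counts in KO and 15934 and 27034 in WT (log2 fold change -0.08, SE 0.44). For Atp2a1, the fast calcium pump, the log2 fold change was -0.01 (SE 0.40), and for Actn3, the fast α-actinin of the Z-disc, -0.18 (SE 0.42). Of 18 regulators of fibre type, 17 were listed, 14 were tested and 0 were called, with a median of 0.29. Among them Mef2c, a muscle transcription factor, had a log2 fold change of 0.27 (SE 0.54), Sox6, a repressor of slow genes, 0.06 (SE 0.42), and Eya4, a coactivator in muscle gene control, 0.88 (SE 0.52).

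**Figure D5:**
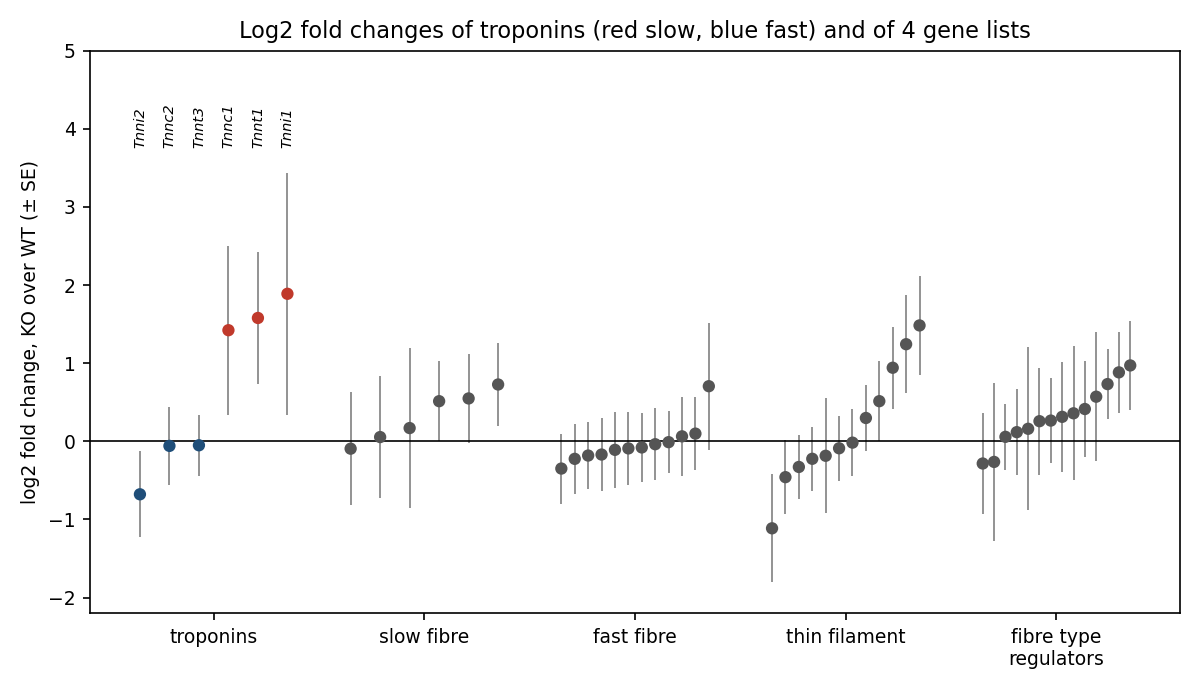
Log2 fold changes of KO over WT for the 6 troponin genes (slow in red, fast in blue) and for the tested genes of 4 lists, with bars of 1 SE, ordered by value within each list. The slow troponins lie between 1.42 and 1.89 and the fast ones between -0.68 and -0.05, and no gene with an adjusted p passed the test.

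The genes whose normalized counts followed the summed slow troponins most closely over the 4 libraries, among 1395 genes with a mean count of at least 100, were 2310014F06Rik, Lrrfip2 and Gm20594, with root mean square differences of 0.25, 0.27 and 0.28 on the centred log2 scale. Lrrfip2 had 5241 and 4532 normalized counts in KO and 590 and 3056 in WT. For the summed fast troponins they were Ptpn4 (0.04), Myh1 (0.08), a fast myosin heavy chain, and Fabp3-ps1 (0.08). Myh1 had 895 and 1308 normalized counts in KO and 815 and 1661 in WT, and in both WT replicate 2 was the highest library.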

How the data were processed

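The authors deposited 1 table of raw read counts, with 1 line per start site and 1 column per library (2 KO, 2 WT). The genome build was GRCm38.p5 per the submitters' processing notes. Mapping, clustering and class codes were described only for sister libraries of 3′ ends. No molecular identifiers were used, so PCR copies were counted, and intervals and floors (3 reads) cover counting error only. The line of column totals was left out. No column of the authors' own comparisons was present.

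Gene counts were the sums of all sites sharing a symbol. Genes and sites were tested over the whole table with DESeq2 1.42.0 (Wald test, median-of-ratios size factors, Benjamini-Hochberg adjusted p under 0.1), as in the study, and with edgeR 4.0.16 (R 4.3.3), and usage with diffSpliceDGE after filterByExpr. Normalized counts were divided by DESeq2 size factors. The tests were also run on simulated counts with large changes in well-read rows, which does not show how they perform for the low slow genes. Slow to fast ratios were compared by an exact permutation test over libraries (scipy 1.17.1). Distances and windows came from RefSeq (GRCm38.p6), which shares chromosome coordinates with the files. Protein sequences and transcript lengths were not used here.

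The members, lists and tests were chosen with earlier results of these data known. Sites were named as the one with most reads, the sense site nearest the annotated start and any called site per gene, and list genes as any called gene and the 3 with most reads. Exceptions are marked in the text. Alternatives covered normalization, filters, threshold, test, summed sites, a replicate block and leaving out each library. Replicates differed by more than sampling noise (chi-square over its degrees of freedom 10.5 for KO and 6.46 for WT) and were kept as separate samples.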

Additional observations from a re-analysis of the deposited data

How the results depend on the processing

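The count of called troponin genes was 0 in all 14 alternatives, and that of genes with changed usage was 0 in all 8. Called sites numbered 0 to 2 when 1 library was left out, the 2 without WT replicate 2, and 0 in the other 11 alternatives. Leaving out a library left 1 in its group, assumed to vary like the other group. The log2 difference of the slow to fast ratio ranged from 1.52 to 2.82 without 1 library each. With the largest site of each gene only it was 3.03, where the Tnnt1 and Tnni1 sites had 0 reads in WT replicate 1. The replicate block changed no call, and in this balanced layout it cannot change the difference of the slow to fast ratio, which stayed 2.17. Same-numbered libraries shared only a number (correlation of deviations 0.07 over 10728 sites). The slow genes stayed higher in KO in all 13 alternatives each. Leaving out a library could not have turned this order, because both KO libraries lay above both WT libraries for each slow gene. The log2 fold changes of the fast genes turned sign in some alternatives. Without intronic sites Tnnt3 was 0.15 (from -0.05), Tnni2 0.16 (from -0.68) and Tnnc2 0.20 (from -0.06). Intronic sites held 2.61% of the Tnnt3 reads and 91.2% of the Tnni2 reads. Tnnc2 had no intronic site, so its counts were the same there and its value moved with size factors estimated anew. In the replicate block Tnnc2 was 0.069 with DESeq2 and 0.047 with edgeR. When 1 library was left out, the log2 fold change ranged from -0.17 to 0.049 for Tnnt3, from -1.69 to -0.08 for Tnni2 and from -0.59 to 0.77 for Tnnc2, from -0.23 to 0.043 for the main Tnnt3 site, from -1.73 to 0.013 for the main Tnni2 site and from -0.59 to 4.79 for the Tnnc2 start site. Apart from that of Tnnc2 without intronic sites, the causes of these shifts were not tested. The slow genes had 52 to 257 reads each, and their size moved with the WT library kept.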
